A study of Mus musculus with 8 samples.

Results

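Laminins, nidogens and perlecan, the glycoproteins and the proteoglycan of the basement membrane, were followed in mouse vascular smooth muscle cells with and without knockdown of the transcription factor Sox6. The members were taken by name: 4 laminin α chains (Lama2, Lama3, Lama4 and Lama5), 2 β chains (Lamb1 and Lamb2), the γ chain Lamc1, the nidogens Nid1 and Nid2, and perlecan, Hspg2. All 10 were found among the 30660 gene identifiers of the count table, and all 10 passed the filter on low counts. RNA sequencing of primary vascular smooth muscle cells gave 8 libraries, 4 from controls (labelled nc, genotype and treatment WT) and 4 from cells with Sox6 knockdown (labelled sisox6). Age, strain, vessel, culture time and the knockdown reagent's sequence are not given in the labels used here, and they do not say if each library had its own culture or animal. The p-values thus reflect how far these 8 libraries vary, and that variation may be technical.

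Laminins are heterotrimers of an α, a β and a γ chain, joined along a coiled coil. Trimers that carry full-length short arms polymerise into a sheet on the cell surface, where integrins and dystroglycan hold them through the globular end of the α chain. Nidogens bind the laminin γ1 short arm and collagen IV, and perlecan binds nidogens and carries heparan sulfate. In vessels this layer surrounds each smooth muscle cell and underlies the endothelium.

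Total counts ran from 41672921 to 48039788 in controls and from 37604102 to 49393224 in knockdowns (exact permutation test, two-sided, p = 0.857). Sox6 had 6, 10, 6 and 4 counts in the controls and 2, 4, 0 and 0 in the knockdowns, in library order, so the targeted gene was near the detection limit in both groups. Its ratio of knockdown to control was 0.234, with an exact 95% interval of 0.0788 to 0.582 for counting error, or of 0.0428 to 0.852 where both reads of a pair were counted. All 8 of its counts were even. Of 16150 genes tested with edgeR's quasi-likelihood test, 51.5% had an adjusted p under 0.05: 25.4% were higher after knockdown and 26.0% were lower. The defining smooth muscle genes were unequally present: Acta2 was at 1240 ± 136 CPM in controls (SD, n = 4; CPM is the count scaled by library size and TMM factor), whereas Cnn1 was at 2.23 ± 0.487 and Myh11 at 5.90 ± 0.987 CPM. Tagln had too few counts to be tested, but 67.9% of its exon length overlaps Gm48529 and Pcsk7 on the opposite strand. How reads in such overlaps were counted is not known, so its level cannot be read from its count alone.

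The promoter sequences that RefSeq gives (build GRCm38.p6, the patch series of mm10) are shown for the β chain pair, whose members changed by different amounts, for the α chain Lama5 and for Nid1. RefSeq entries were matched by symbol for 6 of the 10 members. Each window covered 250 bases before the RefSeq start, and the part that lies before the gene's first base in GENCODE M21 is printed 5′ to 3′ on the gene's strand. Capitals mark the letters GGAATG, the core bound by TEAD factors. The SOX core AACAAT was searched as well, both on either strand.
Lamb1, plus strand, chr12:31265043-31265233: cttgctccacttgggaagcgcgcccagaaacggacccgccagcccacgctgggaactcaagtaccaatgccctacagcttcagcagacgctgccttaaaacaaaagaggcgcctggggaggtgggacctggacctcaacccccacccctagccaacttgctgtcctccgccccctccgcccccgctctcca
Lamb2, plus strand, chr9:108479612-108479735: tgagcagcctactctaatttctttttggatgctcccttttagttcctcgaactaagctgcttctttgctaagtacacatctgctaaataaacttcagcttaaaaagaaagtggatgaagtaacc
Lama5, minus strand, chr2:180225860-180226109: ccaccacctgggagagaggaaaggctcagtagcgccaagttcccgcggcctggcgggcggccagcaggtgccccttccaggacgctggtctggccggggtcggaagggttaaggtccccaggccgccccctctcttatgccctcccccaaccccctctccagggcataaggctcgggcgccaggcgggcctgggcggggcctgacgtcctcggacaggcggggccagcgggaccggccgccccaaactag
Nid1, plus strand, chr13:13437352-13437550: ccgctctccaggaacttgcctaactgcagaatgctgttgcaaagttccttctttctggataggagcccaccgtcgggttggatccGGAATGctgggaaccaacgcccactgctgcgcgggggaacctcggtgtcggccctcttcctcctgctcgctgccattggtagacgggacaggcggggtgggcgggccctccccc
AACAAT was found in 0 of the 6 windows, against 9.42% of 32851 windows of the same length over all genes. GGAATG was found in 1 of the 6, that of Nid1, on the gene's own strand from 165 to 160 bases before the start, against 12.6% of all windows. A match is a description of the letters, and a window without one says nothing of binding elsewhere. Of the 4 windows shown, that of Lamb2 had the lowest GC content, 43.6% over its 250 bases, against 62% for Lamb1, 64.4% for Nid1 and 72.4% for Lama5.

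Of the 10 members, 5 were lower in the knockdown and 0 were higher, against 26.0% lower and 25.4% higher over all genes tested. The 5 that fell were Lama5, Lamb1, Lamc1, Nid1 and Nid2, or 4 without Nid2, which passed the filter on low counts only through the controls. At an unadjusted edgeR p under 0.05, 6 were lower and 0 higher, against 4568 lower and 4643 higher of all 16150 genes tested. DESeq2 and limma-voom also called 0 members higher, but Lamb2 was called higher under total count or upper quartile scaling and without knockdown replicate 2. The share called in either direction, 5 of 10, was close to the 51.5% of all genes. The median log2 fold change of the members was -0.30, beside 0.02 over all genes tested. In 4 members, Lamb1, Lamc1, Nid1 and Nid2, the groups did not overlap, against 46.9% of all genes. Both this count and the median include Nid2, which the filter kept only through the controls. Scaling by total counts in place of TMM raises the median of all genes from 0.02 to 0.12, and the directions given here are relative to that shift.

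**Figure D1:**
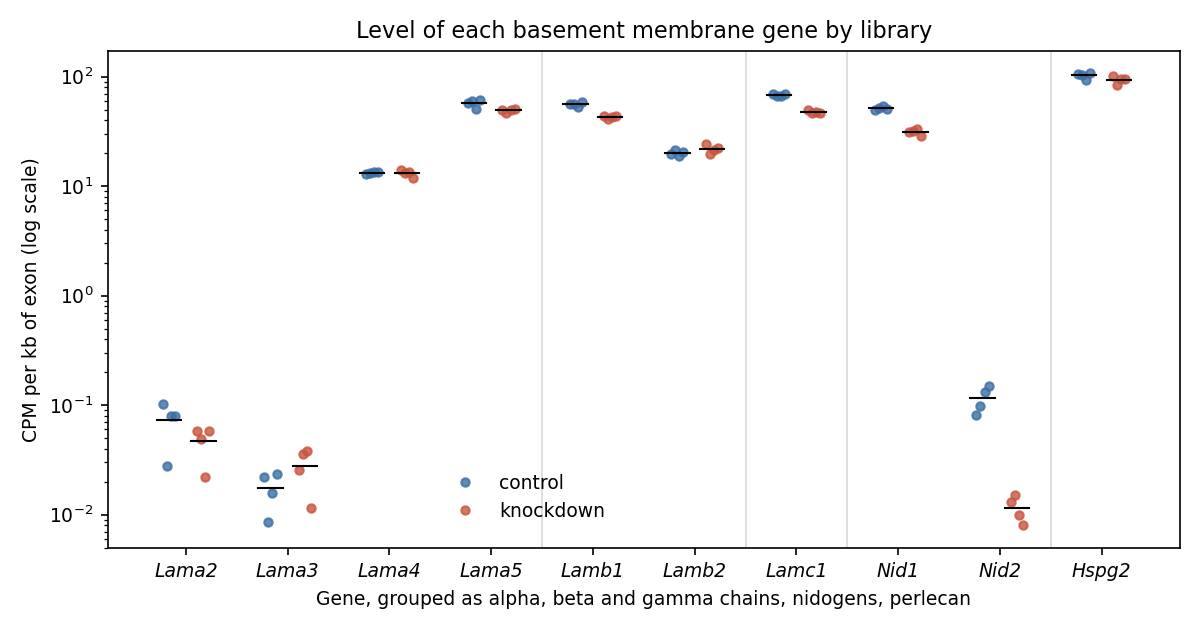
CPM per kilobase of exon (log axis) of each member in each of the 4 control and 4 knockdown libraries; points are libraries and bars are group means. Lama2, Lama3 and Nid2 lie below 1, the other members above 10, and the knockdown points of Lamb1, Lamc1, Nid1 and Nid2 all lie below the controls.

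Levels can be compared between genes only per length, so counts were divided by the length of each gene's merged exons. On this scale Hspg2 was the most abundant member in controls, at 103 ± 6.38 CPM per kilobase (SD, n = 4). Lamc1 followed at 68.1 ± 1.65, Lama5 at 57.0 ± 4.64, Lamb1 at 56.2 ± 2.67 and Nid1 at 51.6 ± 1.66 CPM per kilobase. The libraries of Lama5 and Lamb1 overlapped, as did those of Lamb1 and Nid1, so their order is within the spread. Lamb2 was at 20.3 ± 1.10 and Lama4 at 13.3 ± 0.319 CPM per kilobase. The last 3 were far lower, with Nid2 at 0.115 ± 0.0311, Lama2 at 0.0726 ± 0.0318 and Lama3 at 0.0174 ± 0.00671 CPM per kilobase, and the ranges of Nid2 and Lama2 overlapped. In the knockdown Lama5, at 49.4 ± 1.69, and Lamc1, at 47.6 ± 1.33 CPM per kilobase, overlapped, and Nid2 moved to the last place at 0.0115 ± 0.00316. The order depends on the length used: with the longest transcript in place of the merged exons, control Lamb1 was at 96.4 CPM per kilobase, overlapping Hspg2 at 104 and ahead of Lamc1 at 73.9. On that scale Lama4, at 26.6, was ahead of Lamb2, at 21.9 CPM per kilobase.

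Among the α chains, which carry the receptor-binding globular end, only Lama5 changed past the threshold. Lama5 (ENSMUSG00000015647, mm10 chromosome 2, 180176373 to 180225859) encodes a full-length chain common in vessel walls. It was at 649, 680, 574 and 691 CPM in the controls and at 562, 537, 567 and 583 CPM in the knockdowns. Control replicate 3 was lower than the other controls and lay below knockdown replicate 4, the only overlap of the groups. The mean fell from 649 ± 52.8 to 562 ± 19.2 CPM (SD, n = 4 each), a decrease of 13.3% (log2 fold change -0.21 ± 0.05 SE, edgeR adjusted p = 0.00538). With total count scaling the call was lost (-0.11, adjusted p = 0.0944).

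Lama4 (ENSMUSG00000019846, chromosome 10, 38965515 to 39110188), whose chain lacks the long short arm and is typical of endothelium and smooth muscle, was at 155, 161, 163 and 164 CPM in controls. The knockdown libraries were at 168, 159, 163 and 143 CPM, on both sides of the controls. Its log2 fold change was -0.02, with a 95% interval of -0.13 to 0.08 (edgeR adjusted p = 0.71), and its sign turned with total count scaling (0.077), upper quartile scaling (0.016) and without knockdown replicate 4 (0.025). Lama2, the α chain of skeletal and heart muscle membranes, had 72, 20, 61 and 52 counts in controls and 42, 41, 14 and 46 in knockdowns. Each group held a low library, control replicate 2 and knockdown replicate 3, and the ranges overlapped (log2 fold change -0.62, 95% interval -1.39 to 0.16, edgeR adjusted p = 0.169). Without control replicate 2 Lama2 was called lower (-0.89, adjusted p = 0.0242). Lama3, the α chain of epithelial anchoring laminin, had 10, 4, 8 and 10 counts in controls and 12, 20, 16 and 6 in knockdowns (log2 fold change 0.67, 95% interval -0.30 to 1.64, edgeR adjusted p = 0.235). For neither gene was the difference past the spread between libraries.

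Per kilobase of merged exon, Lama5 made up 78.7% to 81.7% of all α chain counts in the controls and 77.9% to 81.2% in the knockdowns. Lama4 made up 18.2% to 21.1% and 18.7% to 22.0%. Lama2 stayed at or below 0.148% and Lama3 at or below 0.0600% in every library. Lama1, the α chain of early embryos, had 0 counts in the 4 controls, which allows up to 0.0720 CPM in the shallowest of them (3 counts), and 4 counts over the knockdowns. With the longest transcript as the length, the share of Lama4 in controls was 30.8% to 34.8%. The ratio of Lama4 to Lama5 was 0.234 in controls and 0.265 in knockdowns (geometric means, exact permutation test, two-sided p = 0.0571, 0.0735 after Benjamini-Hochberg adjustment over 9 ratios). The difference of its log2 mean was 0.18 beside SDs of 0.13 and 0.14 (n = 4 each).

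The β chains changed unequally. Lamb1 (ENSMUSG00000002900, chromosome 12, 31265234 to 31329644) was at 563, 560, 522 and 585 CPM in controls and at 436, 409, 421 and 431 CPM in knockdowns. All 4 knockdown libraries lay below the lowest control. Lamb1 fell by 23.9% from 557 ± 26.5 to 424 ± 12.2 CPM, with a log2 fold change of -0.39 ± 0.04 (SE) and an edgeR adjusted p of 3.12e-06. Lamb2 (ENSMUSG00000052911, chromosome 9, 108479736 to 108490530), the β chain of arterial muscle, synapses and the kidney filter, was at 121, 131, 116 and 126 CPM in controls and at 148, 119, 130 and 136 CPM in knockdowns. Knockdown replicates 1 and 4 were above every control and the other two lay within the control range. Its log2 fold change was 0.11, with a 95% interval of -0.02 to 0.24 (edgeR adjusted p = 0.143), and it was called higher in 3 alternatives: 0.16 when knockdown replicate 2 was left out (adjusted p = 0.0242), 0.15 by upper quartile scaling (adjusted p = 0.0454) and 0.21 by total count scaling (adjusted p = 0.00584).

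A ratio of genes within a library does not depend on how libraries are scaled. Lamb1 per kilobase was 2.85, 2.61, 2.77 and 2.86 times Lamb2 in the controls and 1.80, 2.11, 1.99 and 1.94 times in the knockdowns. The groups did not overlap. The difference of the log2 ratio was -0.50 beside SDs of 0.06 and 0.09 (exact permutation test, two-sided; p = 0.0286, the lowest possible with 4 libraries a group, and 0.0429 adjusted over 9 ratios). Without control replicate 3 its adjusted p was 0.0514, and the other ratios called here missed the threshold too, at 0.0514 to 0.0735. The called ratios were tied at the lowest possible p, so the adjusted p of each depends on how many of the 9 reach it.

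Lamc1 (ENSMUSG00000026478, chromosome 1, 153218922 to 153332786) encodes the γ chain shared by most laminin trimers. Its controls were at 573, 554, 549 and 577 CPM and its knockdowns at 408, 383, 395 and 387 CPM. The groups were wide apart, with a gap larger than the range of either. Lamc1 fell by 30.1% from 563 ± 13.6 to 393 ± 10.97 CPM; the log2 fold change was -0.52 ± 0.04 (SE) with an edgeR adjusted p of 6.25e-08. The call held in all 18 alternatives, with log2 fold changes from -0.53 to -0.42.

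**Figure D2:**
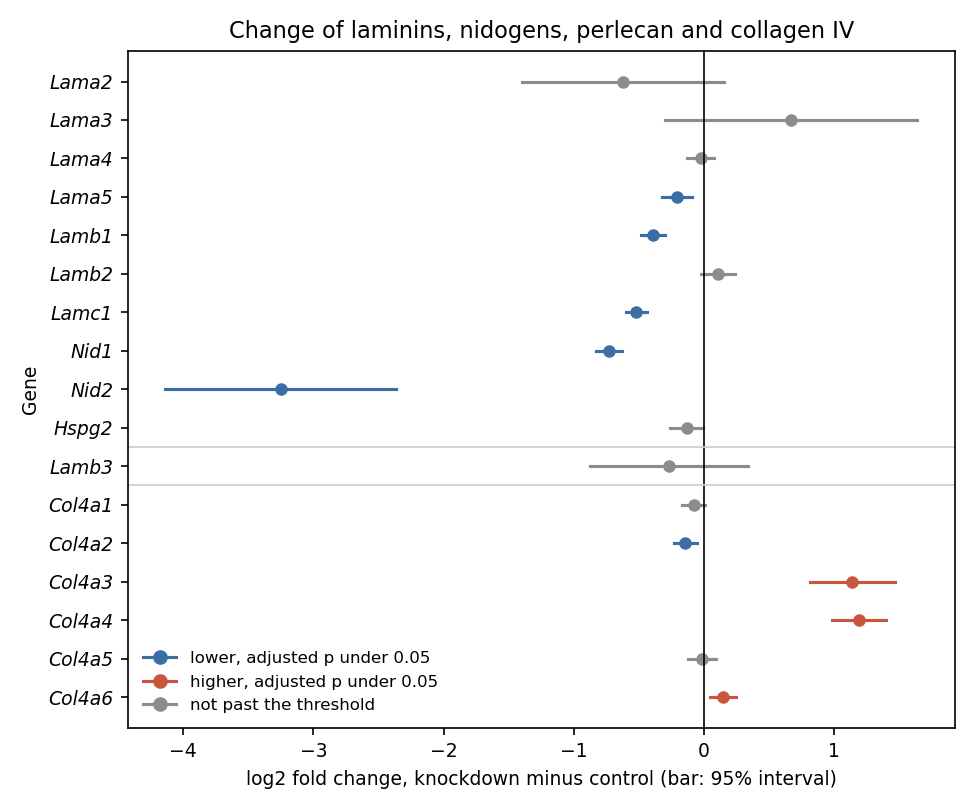
Log2 fold change, knockdown minus control, with its 95% interval (edgeR) for the 10 members, for the laminin chain Lamb3 and for the 6 collagen IV chains. Blue genes were lower, red genes higher and grey genes not past an adjusted p of 0.05. Nid2 lies far left of the other members at -3.25, and Col4a3 and Col4a4 lie right of 1.

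Lamc1 fell further than the summed α chains and the summed β chains. The summed α chains per kilobase were 1.01, 1.09, 0.965 and 1.07 times Lamc1 in controls and 1.28, 1.30, 1.33 and 1.35 times in knockdowns. The summed β chains went from a geometric mean of 1.12 to 1.36 times Lamc1. Both ratios were higher in every knockdown library than in any control, by 0.35 and 0.28 on the log2 scale (exact permutation test, two-sided p = 0.0286 each, 0.0429 adjusted over 9 ratios).

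Nidogen 1, which links the laminin γ1 chain to collagen IV, had the largest fall among the abundant members. Nid1 (ENSMUSG00000005397, chromosome 13, 13437551 to 13512269) was at 348, 358, 374 and 352 CPM in controls and at 215, 220, 231 and 200 CPM in knockdowns. No knockdown library came near the lowest control. It fell by 39.6% from 358 ± 11.5 to 216 ± 12.7 CPM, with a log2 fold change of -0.73 ± 0.05 (SE) and an edgeR adjusted p of 1.25e-08. Nidogens per kilobase were 0.760 times Lamc1 in controls and 0.655 times in knockdowns (geometric means), a log2 difference of -0.21 with groups that did not overlap (exact permutation test, two-sided p = 0.0286, 0.0429 adjusted over 9 ratios). Nid1 thus differed more between the groups than Lamc1 did.

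Nid2 (ENSMUSG00000021806, chromosome 14, 19751265 to 19811787), the second nidogen, was rare in both groups. It had 18, 22, 32 and 31 counts in controls and 3, 4, 2 and 2 in knockdowns, and it passed the filter on low counts only through the controls. Mean abundance was 0.595 ± 0.161 and 0.0595 ± 0.0163 CPM, the latter below the 0.0607 to 0.0798 CPM that 3 counts make up in these libraries. The ratio of knockdown to control counts per total was 0.108, with an exact 95% interval of 0.0525 to 0.202, and of 0.0411 to 0.273 should both reads of a pair have been counted. The edgeR log2 fold change was -3.25 ± 0.41 SE (adjusted p = 1.36e-05), a value that depends on a prior count, and the adjusted p with no filter on low counts was 5.91e-09. Nid2 was not tested under the 1 CPM filter or with counts halved. Exons of Rtraf on the opposite strand overlap 8.45% of the exon length of Nid2. Rtraf rose, from 128 ± 3.01 in controls to 146 ± 6.03 CPM (log2 fold change 0.19, edgeR adjusted p = 0.00136), the opposite direction to Nid2. The ratio of Nid1 to Nid2 was higher in every knockdown library than in any control (exact permutation test, two-sided p = 0.0286, 0.0429 adjusted over 9 ratios), but its size in the knockdowns rests on 2 to 4 counts of Nid2 per library.

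Of 9072 other protein-coding genes with a mean of at least 10 CPM, 3 came closest to Nid2 in log2 CPM centred over the 8 libraries. They were Ccn1, a matricellular protein, with a root mean square difference of 0.233, Ankrd1, a muscle ankyrin repeat protein, at 0.237, and Eln, elastin, at 0.277. Ccn1 went from 102 ± 3.27 to 18.5 ± 1.97 CPM, Ankrd1 from 459 ± 19.9 to 73.3 ± 6.70 CPM and Eln from 97.5 ± 1.89 to 17.8 ± 2.29 CPM. The likeness is a weak description: Nid2 had 2 to 4 counts in each knockdown library, and the prior count of 2 in the log2 CPM makes its difference between the groups smaller than the fitted -3.25.

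Perlecan, the heparan sulfate proteoglycan of the basement membrane, was the most abundant member in both groups on the merged-exon scale. Hspg2 (ENSMUSG00000028763, chromosome 4, 137468769 to 137570630) was at 1522, 1489, 1338 and 1537 CPM in controls and at 1452, 1200, 1365 and 1363 CPM in knockdowns. Control replicate 3 lay within the knockdown range, and knockdown replicate 2 was the lowest of all. The means were 1472 ± 91.3 and 1345 ± 105 CPM, with a log2 fold change of -0.13 and a 95% interval of -0.26 to -0.003 that just left out 0, but the adjusted p over all genes was 0.081 (edgeR). DESeq2 (-0.14, adjusted p = 0.0474) and edgeR with no filter (-0.13, adjusted p = 0.0129) called it lower, as did the fits that left out control replicate 3 (-0.17, adjusted p = 0.0174) and knockdown replicate 1 (-0.17, adjusted p = 0.0284). Perlecan per kilobase was 1.51 times Lamc1 in controls and 1.97 times in knockdowns (geometric means), a log2 difference of 0.39 beside SDs of 0.07 and 0.08 (exact permutation test, two-sided p = 0.0286, 0.0429 adjusted over 9 ratios).

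**Figure D3:**
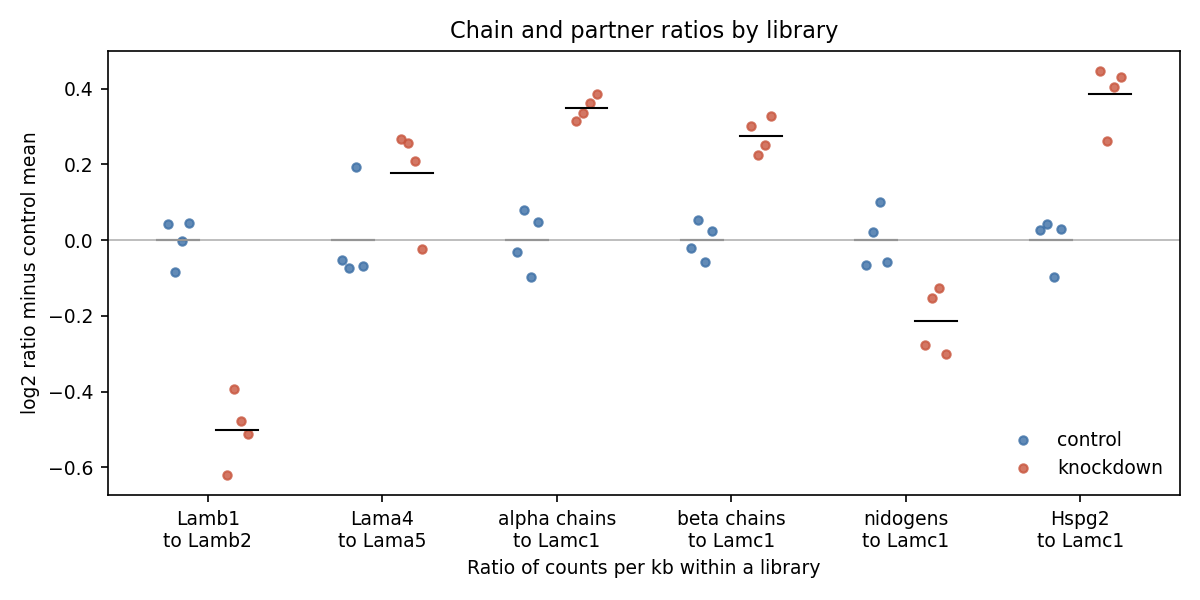
Log2 ratio of counts per kilobase within each library, minus the control mean of that ratio; points are the 4 control and 4 knockdown libraries and bars are group means. The ratio of Lamb1 to Lamb2 lies 0.50 lower in the knockdown and that of Hspg2 to Lamc1 lies 0.39 higher, both without overlap, whereas the groups overlap for Lama4 to Lama5.

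Markers of several other cell types also differed between the groups, and in bulk RNA fewer cells of a type and less RNA per cell cannot be told apart. The summed levels of macrophage and Schwann cell markers overlapped between the groups (exact permutation test, two-sided, p = 0.114 and 0.0642 adjusted over the lists). For every other list the adjusted p of the sum by this permutation test was 0.0368. The counts of markers below stand beside 26.0% lower and 25.4% higher over all genes tested. Among 8 endothelial markers 5 were tested, of which 4 fell and Vwf rose, and their summed level was 9.28 to 11.4 CPM in controls and 4.85 to 6.70 CPM in knockdowns. All 7 heart muscle markers fell, with a sum of 235 to 334 CPM in controls and 24.1 to 92.6 CPM in knockdowns. Of 6 mesothelial markers 4 fell (sum 180 to 195 and 116 to 134 CPM), and of 6 epithelial markers 2 of the 3 tested fell (105 to 116 and 58.4 to 65.7 CPM). Cdh3 led the fall of the epithelial sum, from 64.8 ± 3.91 to 19.8 ± 1.37 CPM, and Epcam was not called (log2 fold change 0.36). The untested Krt5 went from 9 summed counts in controls to 131 in knockdowns, Krt14 from 10 to 70 and Cldn4 from 14 to 16, with overlapping groups. The sum of 6 pericyte markers, led by Rgs5, was 120 to 134 CPM in controls and 569 to 627 CPM in knockdowns, with 2 of 4 tested genes higher and 2 lower. Of 6 fibroblast markers 2 rose and 2 fell (489 to 520 and 420 to 459 CPM), of 8 tested smooth muscle markers 4 fell (1800 to 2076 and 1313 to 1513 CPM), of 4 tested macrophage markers 1 rose and 1 fell (61.9 to 68.1 and 58.7 to 63.5 CPM), and of 2 tested Schwann cell markers 1 fell (13.9 to 15.7 and 12.6 to 14.1 CPM). In each list every gene had at least 1 count. The part of these cells in the changes of laminins and nidogens was not tested.

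Laminin chains outside the group were described by their values. Lamb3 was at 0.820 ± 0.206 and 0.681 ± 0.188 CPM (log2 fold change -0.26, 95% interval -0.87 to 0.34, edgeR adjusted p = 0.461). Lamc3 summed to 44 control and 8 knockdown counts. Neither it nor Lama1 passed the filter.

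Collagen IV, the network to which nidogens and perlecan join the laminin sheet, changed in both directions. The most counted pair of neighbouring chains was Col4a1, at 480 ± 20.7 and 455 ± 9.28 CPM (log2 fold change -0.08, 95% interval -0.16 to 0.01, edgeR adjusted p = 0.13), and Col4a2, which fell from 290 ± 13.3 to 263 ± 6.90 CPM (-0.14, adjusted p = 0.0113). The Col4a2 call was lost with total count scaling (-0.04, adjusted p = 0.423) and upper quartile scaling (-0.10, adjusted p = 0.0506). The rare chains Col4a3 and Col4a4, neighbours that share a promoter region and are best known from the kidney filter, rose. Col4a3 rose from 2.14 ± 0.321 to 4.74 ± 0.785 CPM (1.14 ± 0.15 SE, adjusted p = 2.39e-05) and Col4a4 from 5.39 ± 0.614 to 12.3 ± 1.10 CPM (1.19 ± 0.10 SE, adjusted p = 1.79e-07). Col4a6 rose from 255 ± 8.72 to 282 ± 15.5 CPM (0.15, adjusted p = 0.0139), and Col4a5 was at 314 ± 2.72 and 311 ± 23.1 CPM (-0.01, 95% interval -0.12 to 0.09, adjusted p = 0.83). Of the 6 chains 3 rose and 1 fell, against 25.4% higher and 26.0% lower over all genes tested. Their median log2 fold change was 0.07.

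Of 20 other basement membrane proteins 17 were tested, of which 10 fell and 1 rose, against 26.0% lower and 25.4% higher over all genes tested. Their median log2 fold change was -0.37. Fbln2, which binds laminin, nidogen and perlecan, fell from 2412 ± 129 to 826 ± 48.5 CPM (-1.55, edgeR adjusted p = 2.19e-11). Ntn4, a netrin that binds the laminin γ1 arm and disrupts laminin sheets, fell from 11.1 ± 0.564 to 2.27 ± 0.430 CPM (-2.27, adjusted p = 2.18e-09). The laminin-binding Tinagl1 fell from 184 ± 4.50 to 112 ± 3.56 CPM and the long fibulin-like protein Hmcn1 from 181 ± 4.37 to 85.5 ± 8.28 CPM. Agrn, agrin, the other large heparan sulfate proteoglycan and a bridge from laminin to dystroglycan, was the only one that rose, from 244 ± 24.4 to 285 ± 14.7 CPM (0.22, adjusted p = 0.00949), with overlapping groups. With total count scaling 3 were higher. Col18a1, whose collagen chain is the source of the fragment endostatin, was at 24.0 ± 2.04 and 26.6 ± 3.15 CPM (0.15, 95% interval -0.04 to 0.33, adjusted p = 0.164). Col18a1 was called higher by total count scaling (0.25, adjusted p = 0.0201) or when knockdown replicate 2 was left out (0.23, adjusted p = 0.0169).

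Of 17 tested laminin receptor genes 11 fell and 3 rose, with a median of -0.24. Over all genes tested 26.0% were lower and 25.4% higher. Itgb1, the β subunit shared by most laminin-binding integrins, fell from 808 ± 23.4 to 611 ± 12.4 CPM (-0.40, edgeR adjusted p = 8e-07), and the α subunits Itga3, from 129 ± 2.22 to 103 ± 4.15 CPM, and Itga2, from 51.5 ± 2.52 to 23.4 ± 1.49 CPM, fell too. Itga6, another laminin-binding α subunit, went the other way, from 6.39 ± 0.354 to 9.96 ± 2.89 CPM (0.64, edgeR adjusted p = 0.00471), with overlapping groups. Itga7, the laminin-binding α subunit of muscle, was rare and fell from 2.83 ± 0.396 to 1.35 ± 0.106 CPM (-1.06, adjusted p = 6.75e-05). Dag1, dystroglycan, was at 319 ± 6.06 and 310 ± 14.1 CPM, with a log2 fold change of -0.04 (95% interval -0.13 to 0.05, adjusted p = 0.418) that turned to 0.059 with total count scaling. Dmd, dystrophin, the cytoplasmic anchor of dystroglycan, rose from 21.1 ± 1.41 to 31.9 ± 1.10 CPM (0.59, adjusted p = 1.28e-06). Among 11 tested genes that build the laminin-binding sugar of dystroglycan, 3 rose and 1 fell by small amounts (median 0.03). B3galnt2 rose from 53.5 ± 1.10 to 64.5 ± 3.28 CPM (0.27, adjusted p = 0.00019). The calls of Pomgnt2 (0.28, adjusted p = 0.0266) and Pomk (0.13, adjusted p = 0.0377) were each lost when any of several single libraries was left out. Over the single libraries left out, between 1 and 3 genes of this list were higher and between 0 and 2 lower.

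**Figure D4:**
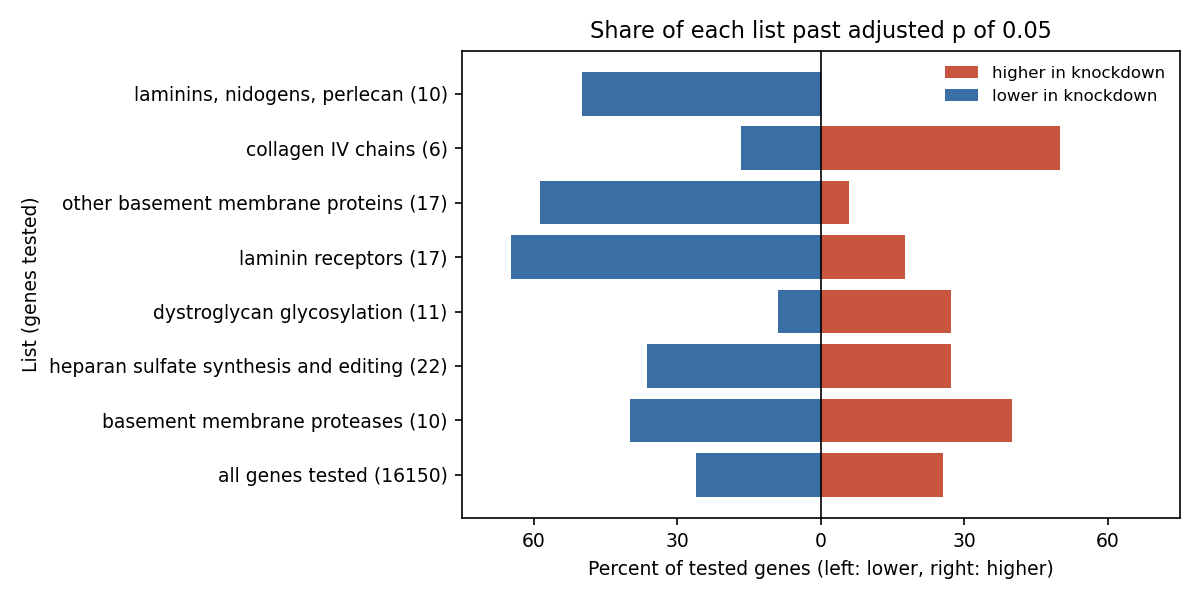
Percent of the tested genes of each list that passed an edgeR adjusted p of 0.05, lower to the left and higher to the right, with the number tested in brackets. Over all 16150 genes 26.0% were lower and 25.4% higher, whereas the 10 members had 5 lower and 0 higher.

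Of 22 genes of heparan sulfate synthesis and editing 6 rose and 8 fell, with a median of -0.05. Shares over all genes tested were 25.4% higher and 26.0% lower. Sulf1, a sulfatase that trims heparan sulfate outside the cell, fell from 177 ± 3.06 to 82.5 ± 4.26 CPM (-1.10, edgeR adjusted p = 9.04e-11), and the chain polymerase Ext1 fell from 191 ± 1.38 to 126 ± 4.30 CPM (-0.60, adjusted p = 1.13e-08). The linker enzyme B4galt7 (0.45) and the epimerase Glce (0.25) rose. With total count scaling 5 genes of this list were lower. Of 10 tested proteases and heparanase that act on basement membranes, 4 rose and 4 fell, beside the same shares over all genes. Stromelysin Mmp3, which degrades laminin, nidogen and perlecan, fell from 1388 ± 220 to 312 ± 24.1 CPM (-2.15, adjusted p = 4.23e-10), and the tolloid-like protease Tll1 was rare and fell from 1.10 ± 0.113 to 0.262 ± 0.0606 CPM. The gelatinase Mmp2 rose from 121 ± 6.55 to 176 ± 11.6 CPM (0.55, adjusted p = 1.03e-06) and the cathepsin Ctsl from 236 ± 15.2 to 359 ± 25.6 CPM (0.60, adjusted p = 6.7e-07). These lists are described by their counts alone and were not tested as sets.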

How the data were processed

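RNA of 8 libraries (4 control, 4 Sox6 knockdown) was read as whole-number counts per gene, as deposited by the authors and not normalized. The submitters' processing notes name mm10 and DESeq2, while for aligner, counter and strand the entry is: not given in the sources used here. Without a known strand, reads of genes that overlap on opposite strands cannot be told apart. GENCODE M21 gave symbols for 30008 of 30660 identifiers, and merged exon lengths. From 72% to 74.2% of counts from 1 to 40 were even in each library, as when both reads of a pair are counted.

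The tests used R 4.3.3 and edgeR 4.0.16: filterByExpr with a minimum count of 10, TMM, and the quasi-likelihood test over all 8 libraries without covariates. Benjamini-Hochberg adjusted p-values over 16150 genes were called under 0.05. Intervals of fold changes are at 95%. The fit was tested on simulated data beforehand. Ratios of counts per kilobase were tested by exact permutation over 70 assignments (scipy 1.17.1 gave the exact binomial intervals, which, like the floor of 3 counts, cover counting error only). Within a group, chi-square over degrees of freedom between libraries was 6.15 to 17.6, more than counting error alone, so no library was a second sequencing of another. Separate preparations from the same RNA or culture can also differ by more than counting error, so the values do not show separate cultures. Members and gene lists were chosen with earlier results of these data known. All members, other chains of laminin and collagen IV, Sox6, 5 further genes chosen by name and up to 4 members of each other list with the smallest p were named, with the 3 genes nearest in pattern to the member with the largest called fall (no member had a called rise). Rtraf, Itga6 and the markers given with values were named after their values were seen. Genes withheld for evaluation are not reported here. Alternatives were DESeq2 1.42.0, limma-voom (limma 3.58.1), 3 other scalings, 2 other filters, the replicate number as a block, halved counts, an adjusted p under 0.01 and leaving out each library.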

Additional observations from a re-analysis of the deposited data

Results flagged for a closer look

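Among 38 groups of 4 libraries (10 members and 9 ratios in 2 groups each), 3 held a library far from the other 3 by Dixon's criterion, while chance flags about 1 in 20. In control replicate 3 the ratio of Lama4 to Lama5 was 0.268, against 0.223 to 0.226 in the other controls (gap over range 0.926). In the same library the ratio of Hspg2 to Lamc1 was 1.41, against 1.54 to 1.55 (0.892). In knockdown replicate 3 the ratio of Lama2 to Lama5 was 0.00044, against 0.00103 to 0.00118 (0.864), on 14 counts of Lama2.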

How the results depend on the processing

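The log2 fold changes of the 10 members under up to 18 alternatives kept their direction and their side of the threshold in 163 cases, passed newly in 8, lost the call in 1 and changed sign in 3. The lost call was Lama5 with total count scaling, and the sign changes were Lama4 (0.077 with total count scaling, 0.016 with upper quartile scaling, and from -0.053 to 0.025 over the single libraries left out). The number of members called higher went from 0 to 1 with total count and upper quartile scaling, and was 0 to 1 over the single libraries left out. The number called lower was 5 to 6 over the single libraries left out and 4 to 6 over all alternatives, with 4 under total count scaling, the 1 CPM filter and halved counts. Nid2 was not tested under the 1 CPM filter or with halved counts. Other sign changes were Col4a1 (0.024 with total count scaling), Col4a5 (0.087 with total count scaling, 0.025 with upper quartile scaling, and from -0.056 to 0.027 over the single libraries left out) and Dag1 (0.059 with total count scaling). Some list counts moved by over 1.5 times. With total count scaling, upper quartile scaling and the stricter p, 0 collagen IV chains were lower. Other basement membrane proteins called higher numbered 3 with total count scaling and 2 with upper quartile scaling, the 1 CPM filter and halved counts. Of the dystroglycan glycosylation genes, 5 were higher with total count scaling and 1 at the stricter p, and 2 were lower with DESeq2 size factors but 0 with total count scaling, upper quartile scaling, no filter, the replicate block and the stricter p. With total count scaling 5 heparan sulfate genes were lower. The cause was not tested.

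Leaving out single libraries gave 1 to 2 collagen IV chains lower, 1 to 2 other basement membrane proteins higher, and 1 to 3 dystroglycan glycosylation genes higher and 0 to 2 lower. The log2 ratios ranged from -0.54 to -0.46 for Lamb1 to Lamb2, from 2.45 to 2.73 for Nid1 to Nid2, from 0.32 to 0.38 for α chains to Lamc1, from 0.26 to 0.29 for β chains to Lamc1, from -0.24 to -0.18 for nidogens to Lamc1 and from 0.35 to 0.43 for Hspg2 to Lamc1. Without control replicate 3 these 6 ratios missed the threshold (adjusted p from 0.0514 to 0.0735). Leaving out any other library also made a design of 3 against 4, and there the calls were kept. The adjusted p of each ratio depends on how many of the 9 reach the lowest possible p, and several share Lamc1. Deviations from the group mean correlated at -0.031 to 0.057 between control and knockdown libraries of the same number. Libraries of different number gave -0.067 to 0.073, so no pairing was seen. With 4 pairs and all genes weighted alike, this cannot decide whether a culture or batch was shared. With the replicate block 5 members were lower and 0 higher, as without it. Lama2, Lama3 and Nid2 rest on few counts in each library.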
